A study of Mus musculus with 6 samples.

Results

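The genes described here are 10 components of the gate that a cell passes when it leaves the resting state in G1: the cyclins D1, D2 and D3 (Ccnd1, Ccnd2, Ccnd3), the kinases Cdk4, Cdk6 and Cdk2, the kinase inhibitors p21 (Cdkn1a), p27 (Cdkn1b) and p18 (Cdkn2c), and the retinoblastoma protein gene Rb1. They were found by symbol in a table of 52183 genes, and all 10 were present, each in 1 row. RNA sequencing was run on sorted haematopoietic stem cells, the bone marrow cells from which all blood lineages descend, of female mice aged 4 months. There were 3 libraries with the genotype label control and 3 labelled Thbs1 knockout, named TSPKO in the titles. The labels give no other allele or treatment for either group. How Thbs1 was deleted, how many mice gave each library, whether mice were pooled and which surface markers defined the sort is not stated in the labels used here. P-values therefore rest on the spread between libraries alone, and that spread may be technical.

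In G1, D-type cyclins made in response to growth signals bind CDK4 or CDK6, and these kinases phosphorylate the retinoblastoma protein. Phosphorylated RB releases E2F transcription factors, which switch on cyclin E and the genes of DNA replication, and CDK2 with cyclin E completes the step. INK4 proteins such as p18 bind CDK4 and CDK6 directly, while the CIP/KIP proteins p21, p27 and p57 act on cyclin-bound kinases. Most adult blood stem cells rest outside the cycle, and in them the amount of CDK6 is known as one setting of how readily they leave that rest.

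The 2 kinases that share the D cyclins are shown first by their promoters, because Cdk6 passed the test below and Cdk4 did not. Each run is the RefSeq window of 300 bases (GRCm38.p6), 250 before and 50 after the annotated start, printed 5′ to 3′ on the gene's strand. Capitals mark the letters CACGTG, the E-box bound by MYC and MAX, and TTTNNCGC, a core of E2F sites, on either strand.
Cdk4, chr10:127063285-127063584, plus strand: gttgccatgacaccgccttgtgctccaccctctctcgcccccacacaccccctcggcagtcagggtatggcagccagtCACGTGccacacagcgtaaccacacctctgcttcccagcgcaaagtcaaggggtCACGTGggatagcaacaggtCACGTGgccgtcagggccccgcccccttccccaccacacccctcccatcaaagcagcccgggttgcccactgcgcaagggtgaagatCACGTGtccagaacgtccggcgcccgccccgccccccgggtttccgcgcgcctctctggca
Cdk6, chr5:3343643-3343942, plus strand: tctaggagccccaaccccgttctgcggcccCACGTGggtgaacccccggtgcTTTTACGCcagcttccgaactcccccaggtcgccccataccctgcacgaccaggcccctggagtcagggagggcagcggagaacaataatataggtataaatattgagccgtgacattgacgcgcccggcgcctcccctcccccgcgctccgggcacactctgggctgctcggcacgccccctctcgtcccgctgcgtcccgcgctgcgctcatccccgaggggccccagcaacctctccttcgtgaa
The Cdk4 window holds CACGTG 4 times, beginning 172, 118, 98 and 11 bases before the start, and at least 4 copies occur in 8 of 32851 promoter windows of the same length (0.0244%). The Cdk6 window holds it once, 220 bases before the start, together with 1 E2F match, TTTTACGC, 198 bases before it. The whole Cdk6 window, from 3343643, lies inside the gene, whose annotated first base is 3341485. The start used for Cdk6 is therefore downstream of that first base. At least 1 CACGTG occurs in 7.15% of all windows and at least 1 TTTNNCGC in 5.17%. Windows were found for 7 of the 10 genes, 10 windows in all, and not for Ccnd1, Ccnd2 and Rb1. Among them CACGTG also occurs in 1 of the 2 windows of Cdkn2c, and TTTNNCGC in the window of Cdk2. The FOXO letters GTAAACA occur in 1 window, of Ccnd3 (3.65% of all windows), GGGCGG of SP1 in 7 windows of 6 genes (35.7%), and TTTGAA of the CHR element in 0 windows (17.9%). No match overlaps a match of another of these 5 motifs. A match describes the letters and is no evidence of binding.

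The label of the knockout could not be borne out from Thbs1 itself, whose level was 2.33 to 13.82 FPKM in control libraries and 7.68 to 10.82 FPKM in libraries labelled knockout (exact two-sided permutation p = 0.5, where 3 against 3 libraries cannot go below 0.1), so every direction below follows the labels alone. Without control replicate 2, Thbs1 was higher in libraries labelled knockout (log2 change 1.26; limma, adjusted p = 0.0343). FPKM are fragments per kilobase of exon per 1000000 of a library. Levels of different genes can be compared only as far as the exon lengths used match the transcripts in these cells. Which lengths the authors used is not stated. Depth, read from the smallest steps between values, lay between 22730000 and 30890000 reads. All 12 stem cell markers listed, among them Procr, Kit and Mecom, reached 1 FPKM in enough libraries to be tested, and their summed level was 786 to 882 FPKM in control and 787 to 896 FPKM in libraries labelled knockout. Of the 12, 1 was lower and 0 higher at an adjusted p below 0.05, against 0.996% and 0.566% of all tested genes. Without overlap of the groups 3 were lower (Ly6a, Slamf1, Hlf) and 3 higher (Procr, Fgd5, Tek), against 10.1% and 12.6% of all tested genes. Ly6a, which encodes the antigen Sca-1, fell from 115 ± 6.78 to 76.9 ± 11.1 FPKM (limma, adjusted p = 0.0286), a call lost without control replicate 2 or 3 or knockout replicate 2 or 3 (adjusted p of 0.0833 to 0.104). Summed markers of T and NK cells stayed between 2.67 and 4.19 FPKM and those of stroma between 1.29 and 2.43 FPKM. In bulk libraries, fewer cells of one type and less RNA per cell cannot be told apart. All 10 members passed the filter on low values and were tested with limma on log2(FPKM + 1) among 12555 genes, with p-values adjusted over all of them by the Benjamini-Hochberg method.

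The members ranged from an abundant kinase to scarce inhibitors. The order of mean levels over 6 libraries was Cdk4, Ccnd2, Cdk2, Ccnd3, Cdk6, Cdkn2c, Ccnd1, Rb1, Cdkn1b and Cdkn1a. Cdk4 stood at 188 ± 9.18 FPKM (SD, n = 6), above 98.3% of tested genes, and Cdkn1a at 1.87 ± 0.303 FPKM, above 13.3%. Each gene down to Rb1 was higher than the next in all 6 libraries. The full ranges of neighbours were apart from Cdk4 down to Ccnd1 and Rb1, whereas those of Rb1 and Cdkn1b overlapped, as did those of Cdkn1b and Cdkn1a. In the last pair, Cdkn1b was above Cdkn1a in 3 of 3 control libraries and in 0 of 3 labelled knockout, a difference in order that was not tested. The error from read numbers alone was up to 7.78% for Cdkn1b and 8.74% for Cdkn1a. In knockout library 3 they stood at 1.41 and 1.5 FPKM, which leaves their order there unresolved.

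**Figure D1:**
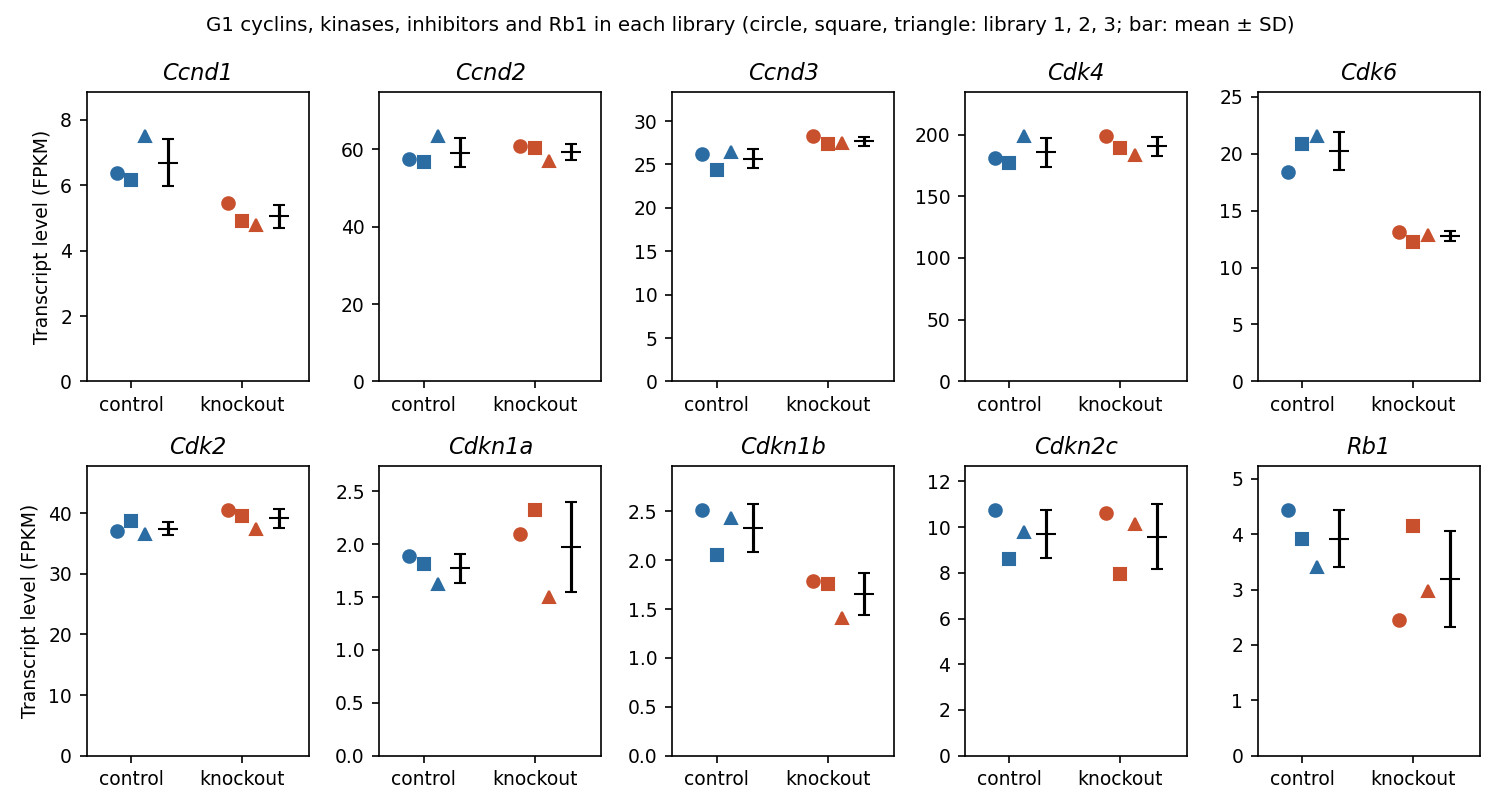
Transcript level in FPKM (vertical axes, each from 0) of the 10 genes in 3 control libraries (blue) and 3 libraries labelled knockout (orange), with bars for the mean ± SD. Cdk6 lies between 18.36 and 21.54 FPKM in control and between 12.28 and 13.11 FPKM in libraries labelled knockout, while Cdk4, Cdk2 and Ccnd2 overlap between the groups.

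Cdk6 (ENSMUSG00000040274, chromosome 5, 3341485 to 3531008, GRCm38), the kinase partner of D cyclins that is tied to exit from rest in blood stem cells, was the one member past the threshold. Control libraries 1 to 3 gave 18.36, 20.83 and 21.54 FPKM, and libraries 1 to 3 labelled knockout 13.11, 12.28 and 12.87 FPKM. The groups did not overlap, and the libraries labelled knockout lay closer together than the controls. The mean fell by 37.0%, from 20.2 ± 1.67 to 12.8 ± 0.427 FPKM (SD, n = 3 each), or 1.59-fold. The log2 change was -0.62 ± 0.087 SE, with a 95% interval from -0.82 to -0.43 (limma, adjusted p = 0.00952). Each value rests on about 4484 to 6849 reads, which puts counting error at about 1.49% or less. By p-value Cdk6 stood at place 52 of the 12555 genes. It lost its call without knockout replicate 2 (log2 change -0.60, adjusted p = 0.0508), and kept it in the other 5 fits that left out a library (adjusted p up to 0.0437).

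Of the 10 members, 1 was lower and 0 were higher at an adjusted p below 0.05, where over all tested genes 0.996% were lower and 0.566% higher (1.56% in either direction). At an unadjusted p below 0.05 there were 2 lower members, Cdk6 and Ccnd1, and 0 higher, against 7.46% lower and 8.92% higher of all genes (16.4% in either direction). The groups did not overlap for 3 members that were lower (Cdk6, Ccnd1, Cdkn1b) and 1 that was higher (Ccnd3), against 10.1% and 12.6% of all genes (22.8% in either direction), so the single higher member is near the background. The median log2 change of the members was -0.0081, beside 0.014 for all tested genes. Rescaling each library to TPM gave 4 higher members (Cdk4, Cdk2, Ccnd2 and Ccnd3) and kept Cdk6 lower (log2 change -0.45, adjusted p = 0.0182). That scaling divides each library by its summed FPKM, which was 373903 to 408725 in control and 329434 to 339652 in libraries labelled knockout. Under it 15277 genes were tested, their median log2 change was 0.19 in place of 0.014, and 94.0% of all called genes were then higher in place of 36.2%. Relative to that median, Cdk4, Cdk2, Ccnd2 and Ccnd3 stood at 0.050, 0.074, 0.017 and 0.12, and Cdk6 at -0.64.

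**Figure D2:**
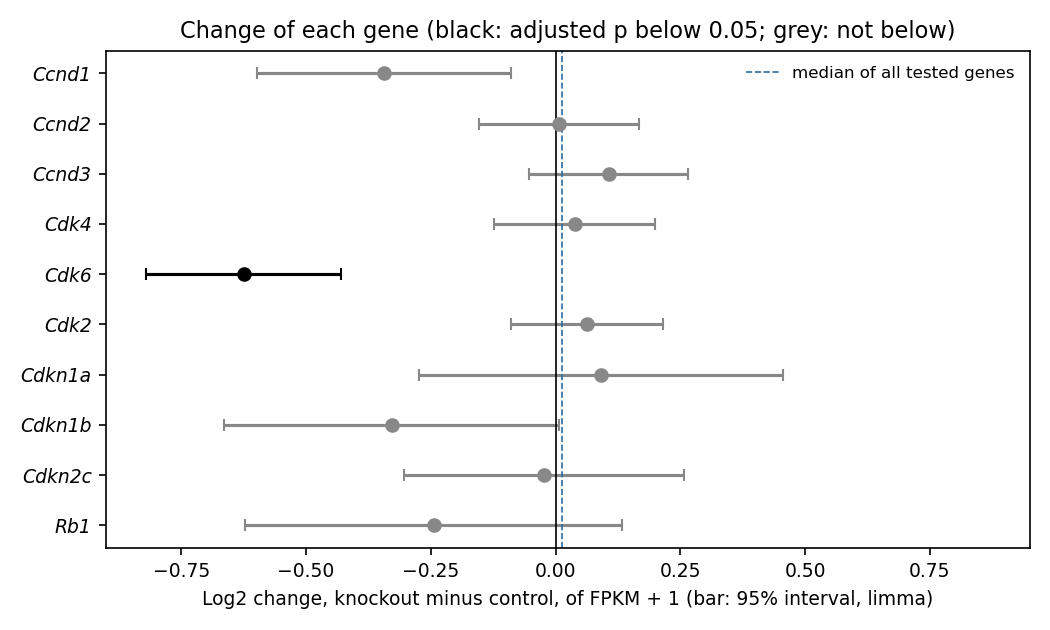
Log2 change of FPKM + 1, libraries labelled knockout minus control (horizontal axis), for each of the 10 genes, with 95% intervals from limma (bars) and the median of all tested genes (dashed line). Cdk6 alone (black) is past the adjusted threshold, at -0.62, and the intervals of Cdk4 and Ccnd2 reach from -0.12 to 0.20 and from -0.15 to 0.17.

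Cdk4 (ENSMUSG00000006728, chromosome 10, 127063534 to 127067920), the other kinase of the D cyclins, was not called. Its values were 181.15, 176.79 and 198.41 FPKM in control and 198.68, 189.41 and 183.02 FPKM in libraries labelled knockout. The groups overlapped, with means of 185 ± 11.4 and 190.4 ± 7.87 FPKM, and the 95% interval of the log2 change ran from -0.12 to 0.20 (limma, adjusted p = 0.844). In FPKM, Cdk4 was therefore in excess of Cdk6 by 8.49 to 9.87 times in control libraries and by 14.2 to 15.4 times in those labelled knockout. Cdk6 made up 9.85 ± 0.670% of the summed Cdk4 and Cdk6 level in control and 6.28 ± 0.254% in libraries labelled knockout, with no overlap. The sum itself was 206 ± 12.4 and 203 ± 8.05 FPKM, since Cdk4 supplies most of it. These ratios do not depend on how libraries are scaled, and no test was made of them. They do depend on exon length: merged exons of the GENCODE M21 annotation span 3249 bases for Cdk4 and 13989 for Cdk6. In reads, Cdk4 had about 13274 to 19940 and Cdk6 about 4484 to 6849 over the 6 libraries.

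Cdk2 (ENSMUSG00000025358, chromosome 10, 128697939 to 128705031), the kinase that acts with cyclin E after RB has been phosphorylated, was read at 37.02, 38.68 and 36.61 FPKM in control. The libraries labelled knockout gave 40.48, 39.56 and 37.47 FPKM. The groups overlapped, and the log2 change was 0.063 with a 95% interval from -0.089 to 0.22 (limma, adjusted p = 0.697). Of the 3 kinases, then, Cdk6 alone passed the test on FPKM, and the others had intervals whose ends lay within 0.22 of no change.

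Among the D cyclins, Ccnd2 (ENSMUSG00000000184, chromosome 6, 127125162 to 127152193) was the main transcript, with 64.7 ± 0.722% of the summed cyclin D level in control and 64.5 ± 0.637% in libraries labelled knockout. Its values were 57.49, 56.68 and 63.45 FPKM in control and 61.01, 60.26 and 57.05 FPKM in libraries labelled knockout. The groups overlapped, and the interval of the log2 change was -0.15 to 0.17 (limma, adjusted p = 0.978). The summed level of the 3 cyclins was 91.5 ± 5.20 and 92.2 ± 2.73 FPKM.

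Ccnd1 (ENSMUSG00000070348, chromosome 7, 144929931 to 144939925), the D cyclin best known as a target of growth factor signalling, was the least abundant of the 3. The controls gave 6.38, 6.17 and 7.50 FPKM and the libraries labelled knockout 5.45, 4.91 and 4.77 FPKM. All of the latter lay under all controls, with means of 6.68 ± 0.715 and 5.04 ± 0.359 FPKM. The log2 change was -0.34 ± 0.11 SE, with an interval from -0.60 to -0.090, and it did not pass the adjusted threshold (limma, adjusted p = 0.174). As a share of the summed cyclin D level, Ccnd1 made up 7.07% to 7.71% in control and 5.31% to 5.75% in libraries labelled knockout.

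Ccnd3 (ENSMUSG00000034165, chromosome 17, 47505051 to 47599691), a D cyclin prominent in lymphoid and erythroid cells, lay on the other side of its controls. The controls gave 26.18, 24.40 and 26.38 FPKM and the libraries labelled knockout 28.26, 27.31 and 27.47 FPKM. The groups did not overlap, yet the log2 change was 0.11 with an interval from -0.052 to 0.26 and was not called (limma, adjusted p = 0.499). Per unit of Ccnd1 there was 3.86 ± 0.305 of Ccnd3 in control and 5.50 ± 0.291 in libraries labelled knockout, a ratio given without a test.

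**Figure D3:**
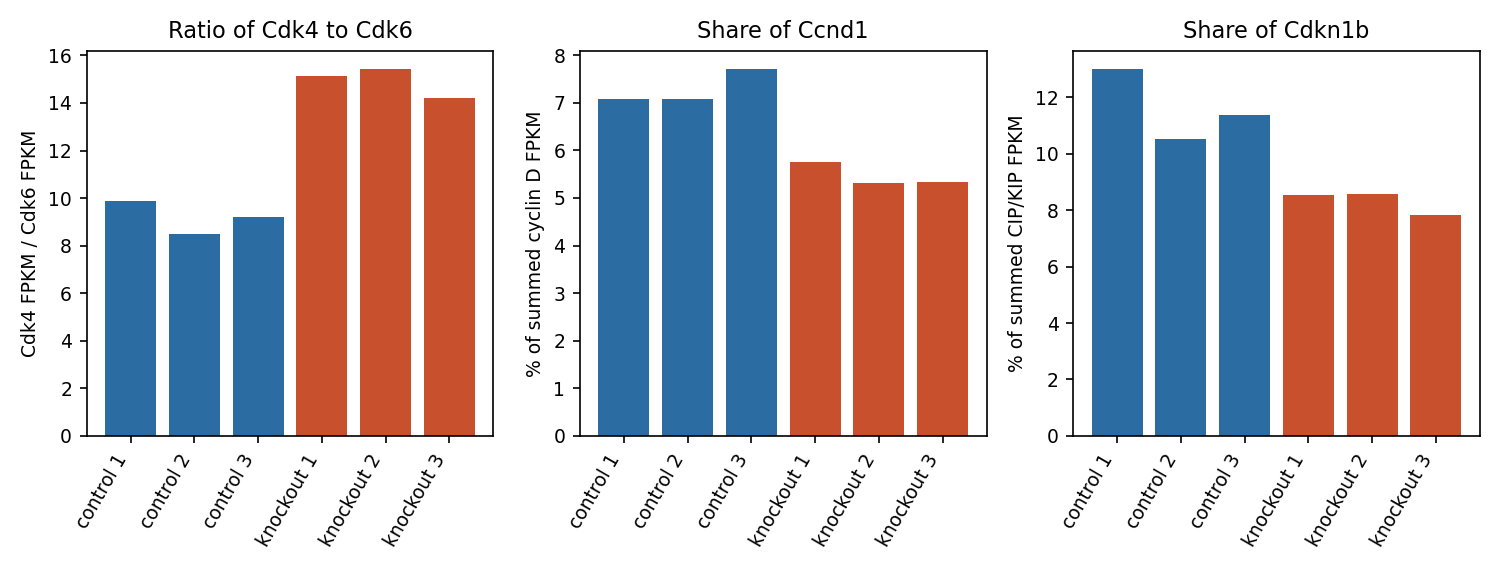
Each bar is 1 library, control in blue and labelled knockout in orange: the ratio of Cdk4 to Cdk6 FPKM, the percentage of summed cyclin D FPKM from Ccnd1, and the percentage of summed Cdkn1a, Cdkn1b and Cdkn1c FPKM from Cdkn1b. The ratio is 8.49 to 9.87 in control and 14.2 to 15.4 in libraries labelled knockout, and both shares are lower in all 3 libraries labelled knockout than in any control.

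The CIP/KIP inhibitors were scarce apart from p57. Cdkn1b (ENSMUSG00000003031, chromosome 6, 134920401 to 134925513) encodes p27, which holds CDK2 in check in resting cells. Its level was 2.51, 2.05 and 2.43 FPKM in control, against 1.79, 1.76 and 1.41 FPKM in libraries labelled knockout. No library labelled knockout reached the lowest control, but the log2 change of -0.33 ± 0.15 SE did not pass the test (95% interval from -0.66 to 0.0069; limma, adjusted p = 0.316). With about 165 to 296 reads behind each value, counting error alone was up to about 7.78%, beside spreads of 10.5% and 12.8% within the groups. On the log2(FPKM + 1) scale, changes at such low levels are understated.

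Cdkn1a (ENSMUSG00000023067, chromosome 17, 29090976 to 29100727), the p53 target that encodes p21, had the lowest mean over the 6 libraries, although Cdkn1b lay below it in each library labelled knockout. The controls gave 1.89, 1.81 and 1.62 FPKM and the libraries labelled knockout 2.10, 2.32 and 1.5 FPKM. Knockout library 3 gave the lowest value of all and knockout library 2 the highest, so the groups overlapped fully (log2 change 0.091, interval from -0.27 to 0.46; limma, adjusted p = 0.837). Cdkn1c, which encodes p57, a keeper of stem cell rest and a gene outside the 10, stood at 16.0 ± 1.22 and 16.2 ± 1.03 FPKM. It supplied 79.5 ± 2.01% and 81.8 ± 1.86% of the summed CIP/KIP level, and the share of Cdkn1b was 11.6 ± 1.26% and 8.30 ± 0.411%.

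Cdkn2c (ENSMUSG00000028551, chromosome 4, 109660876 to 109667189), the INK4 gene for p18, whose product binds the same kinases as D cyclins, showed no separation. Its level was 10.73, 8.62 and 9.77 FPKM in control, against 10.61, 7.95 and 10.15 FPKM in libraries labelled knockout. The log2 change was -0.023 with an interval from -0.30 to 0.26 (limma, adjusted p = 0.958). Most INK4 transcript came from Cdkn2d, the p19 gene, at 55.8 ± 3.10 and 53.3 ± 3.50 FPKM. Cdkn2a and Cdkn2b, the genes for p16 and p15, were listed between 0 and 0.15 FPKM in all 6 libraries and were not tested.

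Rb1 (ENSMUSG00000022105, chromosome 14, 73183673 to 73325822), whose protein is the substrate of these kinases and the brake on E2F, stood at 4.43, 3.92 and 3.40 FPKM in control. The libraries labelled knockout gave 2.45, 4.15 and 2.98 FPKM. Libraries 1 and 3 of that group lay below every control and library 2 within their range, so the groups overlapped (log2 change -0.24 ± 0.17 SE, interval from -0.62 to 0.13; limma, adjusted p = 0.515). Of the related pocket protein genes, Rbl1 stood at 21.04 ± 1.40 and 17.2 ± 4.25 FPKM and Rbl2 at 13.5 ± 1.48 and 14.1 ± 0.249 FPKM.

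Because the kit does not mark strand, reads from exons shared with a gene on the opposite strand cannot be told apart. Such exons made up 19.7% of Cdk4 (641 bases shared with Tspan31, read at 31.0 and 31.9 FPKM in the group means) and 23.4% of Ccnd1 (1100 bases shared with the gene listed as LTO1, at 4.34 and 4.41 FPKM). For Rb1 they were 8.11% shared with Rcbtb2 and 6.78% shared with Lpar6, and for Cdk6 2.63% shared with Gm17590, at 0.563 and 0.317 FPKM. Near-copies elsewhere in the annotation, at 90% identity over 200 bases or more, were read at 1.12 FPKM or less where listed. The closest were Ccnd3-ps, 96.6% identical to Ccnd3 over 417 bases, and Gm16505, 92.3% identical to Cdk6 over 388 bases. Gm21321, 90.5% identical to Cdk6 over 232 bases, stood at 0.573 FPKM in control and 1.06 FPKM in libraries labelled knockout. Whether reads of Cdk6 were assigned to Gm21321 was not tested.

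Genes around the gate were described from 8 further lists, with 147 tested genes in all, of which 4 were higher and 2 lower. That is 4.08% called, where over all tested genes 1.56% were (0.566% higher and 0.996% lower). The lists were chosen with earlier results of these data known. The called higher genes all belonged to the list of 33 regulators upstream of the gate. Myc, a growth-promoting transcription factor with targets in the cell cycle, rose from 249 ± 24.1 to 403 ± 18.3 FPKM (limma, adjusted p = 0.00446). Cdk4, whose promoter window above carries 4 E-boxes, stood at 1.03 times its control level in the same libraries. Under TPM it was called higher (limma, log2 change 0.24, adjusted p = 0.0217), where the median of all tested genes was 0.19. Whether MYC acts on Cdk4 was not tested. Mycn, the relative of Myc, stood at 119 ± 14.9 and 83.0 ± 15.0 FPKM and was not called (limma, adjusted p = 0.0965). Egr1, an immediate early factor, rose from 10.5 ± 1.24 to 16.7 ± 1.76 FPKM. Txnip, a thioredoxin inhibitor, rose from 313 ± 17.8 to 463 ± 66.0 FPKM, and Ndn, a growth suppressor, from 13.2 ± 1.48 to 20.3 ± 2.44 FPKM. Myc kept its call whichever library was left out (adjusted p up to 0.0337). Txnip lost its call without each of the 6 libraries (adjusted p of 0.0593 to 0.0915), Egr1 without each except control replicate 1 and Ndn without each except control replicate 3 (adjusted p up to 0.104 and 0.117). Mycn passed the threshold without knockout replicate 1 (adjusted p = 0.0335). The other 29 were not called, and the list's median log2 change was 0.063, beside 0.014 for all tested genes.

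Downstream of RB, 27 E2F target genes gave 0 higher and 1 lower, with a median log2 change of -0.013. At an unadjusted p below 0.05 there were 1 higher and 3 lower, against 8.92% higher and 7.46% lower of all tested genes. The gene called lower was Pcna, the sliding clamp of DNA polymerase, which lies 14.1 Mb from Thbs1 on chromosome 2. It fell from a mean of 129 FPKM (115.4 to 152 over the controls) to 84.5 FPKM (77.6 to 88.2; log2 change -0.60 ± 0.11 SE; limma, adjusted p = 0.0309), and the call was lost without control replicate 1 or any 1 of the 3 libraries labelled knockout (adjusted p of 0.0522 to 0.0863). Its near-copy Pcna-ps2 on chromosome 19 stood at 3.41 ± 0.590 and 45.6 ± 1.99 FPKM in the same libraries, so which of the 2 loci gave the reads of either is uncertain. Reads of both together came to 280 to 368 per 1000000 in control and to 222 to 249 per 1000000 in libraries labelled knockout.

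Beside the counts that follow, limma called 1.56% of all tested genes, and 16.4% had an unadjusted p below 0.05, in either direction. Of 18 genes of pocket proteins, E2F factors and the DREAM complex, limma called 0, and the single gene at an unadjusted p below 0.05 was E2f6, a repressive E2F, at 22.7 ± 1.09 and 27.3 ± 1.42 FPKM. Of 7 later cyclins and Cdk1, 0 were called and 0 reached an unadjusted p below 0.05. Ccne2, a cyclin E, stood at 7.34 ± 1.35 and 8.98 ± 2.06 FPKM, and Ccnf at 21.8 ± 3.47 and 25.2 ± 4.81 FPKM. Of 17 mitosis and proliferation genes, 0 were called and 1 had an unadjusted p below 0.05, Ube2c, a ubiquitin-conjugating enzyme of mitotic exit, at 40.9 ± 0.775 and 48.5 ± 6.95 FPKM. Foxm1, a mitotic transcription factor, stood at 8.12 ± 1.67 and 10.1 ± 0.732 FPKM.

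The same shares of all tested genes, 1.56% called and 16.4% at an unadjusted p below 0.05, stand beside the next counts. Of 19 genes that activate CDKs or turn their partners over, 0 were called and 1 had an unadjusted p below 0.05. It was Fbxo31, a ubiquitin ligase subunit linked to cyclin D1, at 8.59 ± 1.02 and 11.8 ± 1.49 FPKM (limma, adjusted p = 0.1298). Cdc37, a co-chaperone that loads kinases such as CDK4 onto HSP90, stood at 46.8 ± 1.75 and 51.5 ± 1.29 FPKM. Of 3 tested inhibitors outside the 10, 0 were called and 0 reached an unadjusted p below 0.05, with Cdkn3 at 30.7 ± 1.78 and 27.7 ± 4.62 FPKM. Of 23 other cyclins and kinases, Ccnk, which encodes the cyclin partner of the transcriptional kinases CDK12 and CDK13, fell from 6.68 ± 0.185 to 4.23 ± 0.119 FPKM (limma, adjusted p = 0.0332), a call lost without each of the 6 libraries (adjusted p of 0.0718 to 0.113). The other 22 were not called.

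**Figure D4:**
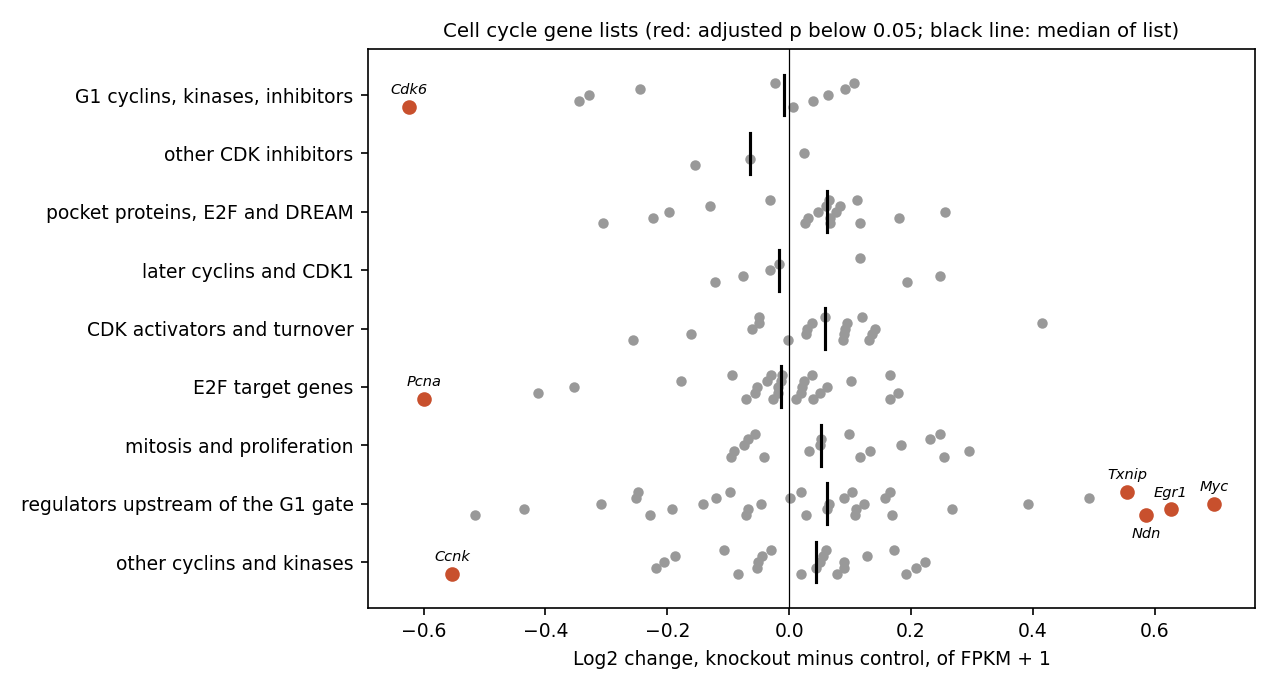
Log2 change of FPKM + 1, libraries labelled knockout minus control (horizontal axis), for every tested gene (points) of the 10 members and 8 further lists, with the list median as a black line. Named red points are genes past the adjusted threshold, and the median is -0.013 for the E2F targets and -0.0081 for the 10 members.

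Cdk6 is known in progenitors as well as stem cells. Summed markers of 3 other cell types were lower in libraries labelled knockout, without overlap and with 0 genes called. No test was made of these sums. As single genes, 3 of 4 tested multipotent progenitor markers were lower without overlap. So were 1 of 8 megakaryocyte and platelet markers and 1 of 2 tested B cell markers, against 10.1% of all tested genes. The list of 6 multipotent progenitor markers, with 4 tested and 0 called, summed to 128 to 138 FPKM in control and to 115 to 124.5 FPKM in libraries labelled knockout. Flt3, the receptor that defines lymphoid-primed progenitors, stood at 8.96 ± 0.791 and 6.80 ± 0.645 FPKM. Of 8 megakaryocyte and platelet markers, all tested and 0 called, the sum was 401 to 506 and 282 to 395 FPKM, and of 8 B cell markers, 2 of them tested and 0 called, 29.3 to 31.1 and 24.3 to 27.8 FPKM. The B cell sum is mostly Cd79b (28.1 ± 1.36 and 24.4 ± 1.05 FPKM), while the other tested B cell marker, Vpreb1, stood at 1.28 ± 0.451 and 1.6 ± 0.704 FPKM. The sums of granulocyte and monocyte, erythroid, T and NK cell, endothelial and stroma markers overlapped between the groups. Among erythroid markers, 7 tested, Hbb-bt, a beta-globin gene whose reads may be split with those of Hbb-bs, fell from 14.8 ± 4.50 to 4.06 ± 0.462 FPKM (limma, adjusted p = 0.00247). It was the 1 erythroid marker called lower, against 0.996% of all tested genes. Fitted changes were below 0 for 5 of the 7 and above 0 for 2. The erythroid sum was 97.2 to 118 FPKM in control and 61.35 to 131 FPKM in libraries labelled knockout. The 4 tested granulocyte and monocyte markers all had fitted changes below 0, with 0 called and a median of -0.13. No listed marker was at 0 in all libraries except Ncr1 of the T and NK cell list. The part of these cells in the level of Cdk6 was not tested.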

How the data were processed

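RNA of sorted stem cells was measured in 6 libraries, 3 per group, made from 2 ng of total RNA with a SMART-Seq v4 kit, per the labels' protocols. The authors deposited FPKM values with 2 decimals for 52183 genes, a unit named in the title of that table. Per the submitters' processing notes, FastQC 0.11.5, STAR, edgeR and the builds GRCm38 and mm10 were used; what each did, and which annotation and counting were used, is not stated there.

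All identifiers matched GENCODE M21 (GRCm38), which gave positions and merged exon lengths. Depth was the value that made most FPKM of genes of up to 400 bases whole reads, with 99.5% to 99.8% whole within 0.1 read, and read numbers of members follow from it. Summed over all genes with these exon lengths, reads came to 1.067 to 1.069 times that depth. Read numbers of members are therefore approximate. They cover counting error only, since reads amplified by PCR are not independent molecules. Genes that reached 1 FPKM in 3 or more libraries were transformed as log2(FPKM + 1) and fitted in limma 3.58.1 under R 4.3.3 (group as the single term, eBayes with trend, two-sided) and a Benjamini-Hochberg threshold of 0.05. Log2 changes are on that scale, where changes of low genes come out too small. The fit was also run on simulated data, drawn as independent normal values from its own fitted variances. Such data cannot show how the fit behaves under effects shared within a library, and no conclusion is drawn from that run. Near-copies were searched with BLAST 2.17.0. Alternatives were another pseudocount, other filters, 3 other scalings, eBayes without trend, array weights, a replicate block and leaving out each library.

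The members and lists were chosen with earlier results of these data known. Named genes are the members, Thbs1 and, of each other list, the called genes or, where there were none, up to 2 with the smallest p. Other genes with values (Cdkn1c, Cdkn2a, Cdkn2b, Rbl2, Mycn, Flt3, Ly6a, Hbb-bt, Cd79b, Vpreb1 and genes sharing sequence with members) were chosen after their values were seen.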

Additional observations from a re-analysis of the deposited data

How the results depend on the processing

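Cdk6 was lower in all 15 alternatives, with log2 changes from -0.69 to -0.45 and adjusted p from 0.00315 to 0.0823. It stayed past the threshold in 13 of them. The exceptions were the fit with no filter, which tested 35246 genes (-0.62, adjusted p = 0.0823, 0 members lower), and the fit without knockout replicate 2 (-0.60, adjusted p = 0.0508, 0 members lower). With a library left out, Cdk6 lay between -0.69 and -0.58 and the number of lower members between 0 and 1. Under TPM, 4 members were higher: Cdk4 (0.24), Cdk2 (0.27), Ccnd2 (0.21) and Ccnd3 (0.31), with adjusted p of 0.0217, 0.0489, 0.0493 and 0.0297. Ccnd2 (0.0068) turned to -0.032 under quantile normalization and lay between -0.023 and 0.057 with a library left out. Cdkn2c (-0.023) turned to 0.17 under TPM and lay between -0.098 and 0.092 with a library left out. Ccnd1, Cdkn1b, Rb1 and Cdkn1a kept their direction and stayed short of the threshold wherever they were tested, and the filter at a mean of 5 FPKM removed the last 3. Thbs1 passed the threshold without control replicate 2 (1.26, adjusted p = 0.0343). Under TPM, Cdkn3 and Cdkn2d turned from -0.16 and -0.064 to 0.042 and 0.14, and E2f6, Fbxo31, Cdc37 and Ube2c passed the threshold. Alternatives for genes outside the 10 were added after seeing the data.

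Over all genes, 71 higher and 125 lower calls became 8 and 16 with no filter, 24 and 65 without trend, and 2016 higher under TPM. Higher calls came to 112 both with a mean of at least 5 FPKM and with array weights. Leaving out a library gave 16 to 38 higher and 43 to 77 lower, with fewer samples in each fit. The replicate block gave 27 higher and 54 lower, and Cdk6 kept its call (adjusted p = 0.0395), while Egr1, Txnip, Ndn, Ccnk and Ly6a lost theirs (adjusted p = 0.0721, 0.101, 0.0848, 0.1101 and 0.0782). Without trend, Pcna (0.0981), Egr1 (0.0708), Txnip (0.101), Ndn (0.0908) and Ly6a (0.0932) lost their calls by adjusted p, and under TPM Ccnk did (0.0522). With no filter, all 9 called genes named here did, Myc (0.108) and Hbb-bt (0.0874) among them. Libraries of the same number shared no deviation (correlations of -0.11, 0.037 and -0.079 over genes), and control library 1 went best with knockout library 3 (0.19), so the numbers were not taken as pairs.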

Other observations

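Genes of DNA replication and mitosis varied between libraries of the same group. Over 17 mitosis and proliferation genes, summed levels were 439, 408 and 385 FPKM in control libraries 1 to 3 and 374, 459 and 492 FPKM in the libraries labelled knockout. Knockout library 1 held the lowest value for 9 of the 17 genes, and knockout library 3 the highest for 9. The 27 E2F target genes summed to 1262, 1157 and 1312 FPKM in control and to 1127, 1253 and 1246 FPKM in libraries labelled knockout, with 11 genes lowest in knockout library 1 and 11 lowest in control library 2. Later cyclins with Cdk1 summed to 206 FPKM in knockout library 1 and to 261 and 262 FPKM in the other two of its group. Cdk6 stood at 13.11, 12.28 and 12.87 FPKM in those 3 libraries. Counting errors of 1.33% and 1.47% leave its order between knockout libraries 1 and 3 unresolved. Its relation to the summed levels was not tested. These sums were chosen after the values were seen and were not tested.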
